A study of Rattus norvegicus with 15 samples.

Results

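In 27 of the 39097 transcripts listed for every library, abundance lay below 0.5 in all 5 Wistar Kyoto (WKY) aortas and at 1 or more in all 10 aortas of spontaneously hypertensive rats (SHR), with or without neferine. Those deposited values chose the transcripts, so the gap between the strains is a description and was not tested as a result. The rule also set aside the isoforms of 4 assembled loci, of which 1 isoform had values that would have met it. RNA sequencing was done on the abdominal aorta of 15 rats, 5 per group. WKY and SHR rats received double distilled water for 10 weeks, and the group called SHR+Nef consisted of SHR given neferine, a bisbenzylisoquinoline alkaloid of the lotus seed, at 10 mg/kg per day for 10 weeks. The labels give no age or sex, and they do not say whether any rats were littermates.

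SHR and WKY are inbred rat strains bred from Wistar stock, the former for high blood pressure, the latter kept as its normotensive reference. The wall of the abdominal aorta is built mainly of vascular smooth muscle with an inner endothelium and an outer layer of fibroblasts. A gene can give rise to several transcripts, or isoforms, through alternative starts, splicing or ends. A strain can therefore lack a transcript because the whole locus is silent or because the locus makes another isoform instead. Libraries depleted of ribosomal RNA also hold noncoding and incompletely spliced transcripts.

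Each transcript carries either an Ensembl rat ID or an assembled ID (MERGE) that names a locus and then an isoform. The files do not pair IDs with gene names, and 0 IDs matched the gene table at hand, so no sequence, gene function or genome position is given. The tissue label could not be checked against marker genes for the same reason. One library stood apart: SHR replicate 4 had the highest summed value of the 15 libraries (746274, against 496460 to 634078) and 8259 of the 39097 transcripts at 0, against 2560 to 3739 in the others. It touches several results below and is named beside many of them.

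Of the 27 transcripts, 22 were assembled isoforms from 20 loci and 5 had Ensembl IDs. The assembled share was 81.5% among the 27 and 43.7% among the 11616 transcripts at 1 or more in all 10 SHR and SHR+Nef libraries. It was 65.8% among all transcripts listed for every library and 61.0% among those tested. All 27 passed the filter used for testing, a value of at least 1 in 5 libraries. In WKY, 9 were at 0 in all 5 libraries and 18 had a value above 0 in 1 or more, 8 of them in all 5. Most were thus low in WKY rather than without any signal. A value of 0 can be a failed estimate, and fewer cells of a type cannot be told apart from less RNA per cell in whole tissue.

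**Figure D1:**
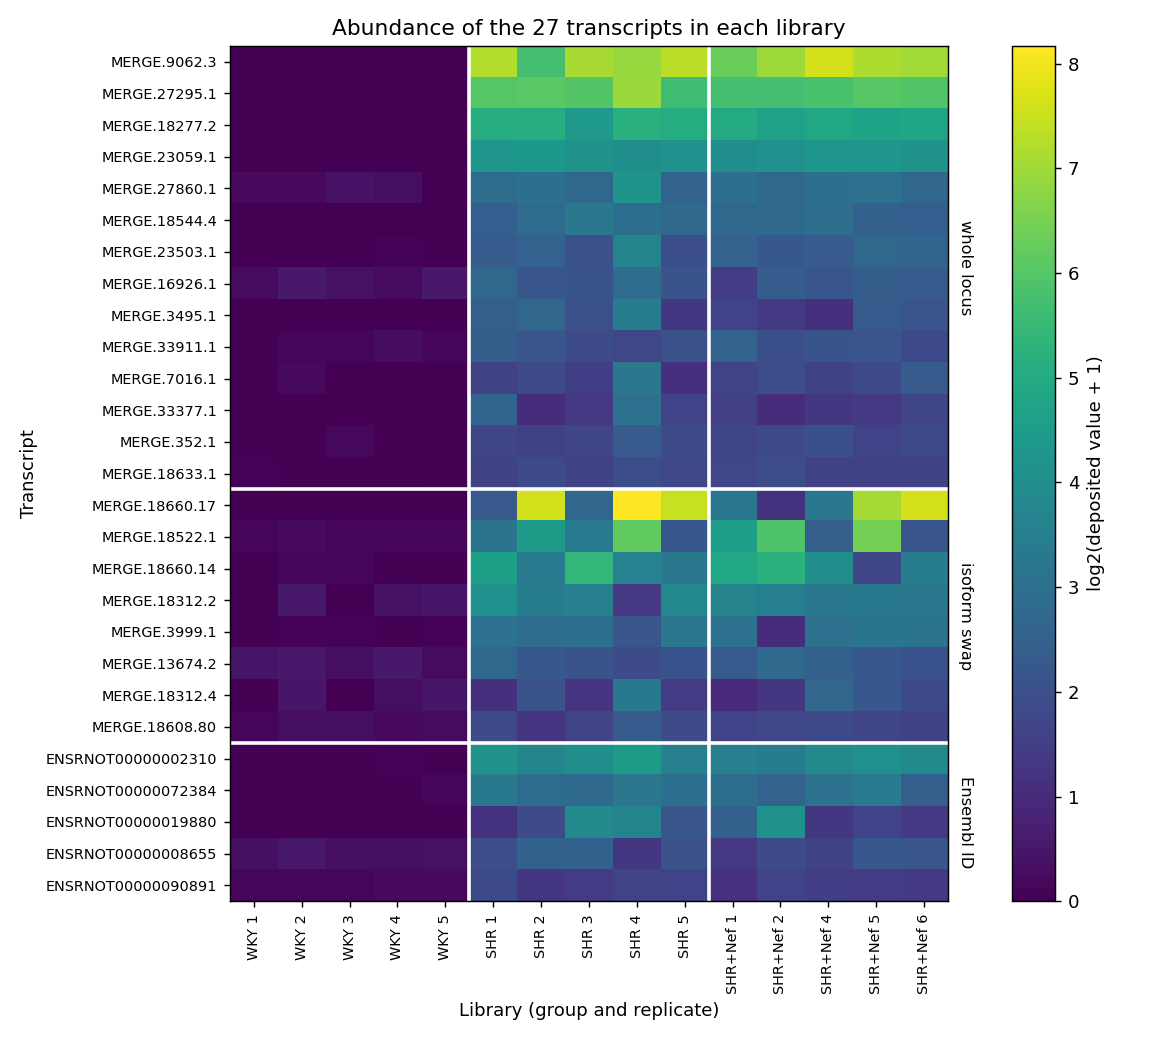
Each row is 1 of the 27 transcripts, each column 1 library, and the colour gives log2(deposited value + 1), with rows grouped as whole locus, isoform swap and Ensembl ID. The WKY columns stay below 0.5 in value by the choice of transcripts, while the SHR and SHR+Nef columns run from near 1 to 287.

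Levels in the SHR strain spanned a wide range. The mean over the 10 SHR and SHR+Nef libraries was 100 or more for 2 transcripts, 10 to under 100 for 6, 5 to under 10 for 7, 2 to under 5 for 11 and below 2 for 1. The median of these means was 5.95, against 8.04 for all 11616 transcripts at 1 or more in the same 10 libraries. The 27 were therefore not a group of especially abundant transcripts.

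The most abundant was MERGE.9062.3, the only isoform of its locus in the files although it carries the number 3. It was at 0 in all 5 WKY libraries. SHR replicates 1 to 5 were at 147, 53.6, 135, 118 and 158. SHR+Nef replicates 1, 2, 4, 5 and 6 were at 78.4, 124, 193, 141 and 132. The SHR and SHR+Nef ranges overlapped, with the lowest value in SHR replicate 2, and the means were 122 ± 41.2 and 134 ± 41.0 (SD, n = 5 each). Its mean over the 10 libraries ranked above 98.6% of all listed transcripts.

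MERGE.27295.1, also the only listed isoform of its locus, was at 0 in every WKY library and at 57.3 ± 5.41 in SHR+Nef (SD, n = 5). In SHR it was at 64.0, 67.1, 61.6, 121 and 48.3 in replicates 1 to 5. The high value belonged to SHR replicate 4. Without it the other SHR libraries spanned 48.3 to 67.1, and the SHR+Nef libraries spanned 52.2 to 64.8.

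The steadiest of all was MERGE.23059.1, again alone at its locus. WKY stood at 0 throughout, SHR at 18.6, 19.4, 17.3, 15.9 and 16.7, and SHR+Nef at 15.6, 16.6, 18.7, 18.6 and 16.9. Its coefficient of variation over the 10 libraries was 7.56%, the lowest of the 27. MERGE.18277.2 had a coefficient of variation of 16.0%, with WKY at 0, SHR at 33.0, 33.1, 20.4, 35.2 and 32.3, and SHR+Nef at 30.9, 24.4, 28.8, 25.7 and 27.4. SHR replicate 3 was the low one, and its second listed isoform, MERGE.18277.3, stood at 2.16 in that library, at 5.84 in SHR replicate 1 and at no more than 0.169 elsewhere.

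The median coefficient of variation was 32.8% for the 27 and 27.9% for the 11616 transcripts. It was under 25% in 9 and 50% or more in another 9. The highest library exceeded the lowest by 10 times or more in 5 of the 27, a spread seen in 4.53% of the 11616. Among the 10 libraries SHR replicate 4 was the highest for 14 of the 27 and the lowest for 4. The median ratio of its value to the median of the other 9 libraries was 1.55 for the 27 and 0.939 for the 11616. Of the 11616, 29.3% were highest in SHR replicate 4. Without it the SHR mean moved by over 1.5 times in 3 of the 27, from 22.6 to 10.4 for MERGE.18522.1, from 3.27 to 1.89 for MERGE.18312.4 and from 3.22 to 1.92 for MERGE.7016.1.

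The 22 assembled transcripts were divided by what else the locus showed in WKY. Another isoform counted as expressed when it was at 1 or more in at least 3 of the 5 WKY libraries. By this measure 14 loci with 14 of the transcripts had no expressed isoform in WKY (whole locus), and 6 loci with 8 of the transcripts had one (isoform swap). In 11 of the 14 whole loci no other isoform was listed at all, and in 3 the listed isoforms were low. The tables list no transcript whose means were below 0.5 in both groups of a table, so an unlisted isoform may still exist. The 5 Ensembl transcripts are not tied to a locus in the files and could not be placed in either class.

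Among the whole loci, MERGE.9062, MERGE.27295, MERGE.18277 and MERGE.23059 had the highest levels. The other 10 carried means between 2.33 and 7.45 over the 10 libraries. MERGE.18544.4 was at 0 in all WKY libraries, at 4.41, 6.30, 8.56, 6.82 and 6.08 in SHR and at 5.60, 6.11, 6.50, 4.70 and 4.45 in SHR+Nef. The other isoform of that locus, MERGE.18544.7, was also near absent from WKY (0.0104 ± 0.0232) and low in SHR (0.702 ± 0.284; SD, n = 5 each). At MERGE.18544 both listed isoforms were thus higher in the SHR strain in every library.

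At MERGE.33377 both of the 2 listed isoforms were likewise higher in the SHR strain. MERGE.33377.1 held on average 48.3% of the locus in SHR and 34.4% in SHR+Nef. MERGE.33377.1 was at 0 in WKY, at 5.39, 1.12, 1.57, 7.30 and 2.13 in SHR and at 1.90, 1.04, 1.53, 1.62 and 2.25 in SHR+Nef. MERGE.33377.2, which the rule did not choose, was at 0.717, 0.359, 0.279, 0.311 and 0.334 in WKY and at 5.43, 2.07, 2.30, 2.45 and 3.04 in SHR. The SHR and WKY values of MERGE.33377.2 did not overlap. Being below 1 in all WKY libraries, it passed the filter only through the SHR strain, and its low WKY level is also why the locus counted as whole, so its difference is a description. In SHR+Nef it stood at 3.18 ± 0.462 (SD, n = 5).

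The other whole loci had 1 listed isoform each. MERGE.27860.1 reached at most 0.317 in WKY. Its SHR values spanned 5.12 to 17.6, with SHR replicate 4 on top and the next at 6.95, and its SHR+Nef values 5.45 to 7.42. MERGE.23503.1 reached at most 0.0682 in WKY, spanned 2.87 to 11.96 in SHR with SHR replicate 4 on top, and 3.77 to 5.78 in SHR+Nef. MERGE.16926.1 was at 0.184 to 0.480 in WKY, so close to the limit of 0.5, while SHR spanned 3.28 to 6.61 and SHR+Nef 1.80 to 4.36. SHR replicate 4 was again on top.

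MERGE.3495.1 was at 0 in WKY, while SHR spanned 1.52 to 9.68 and SHR+Nef 1.15 to 4.01. MERGE.7016.1 was above 0 in 1 WKY library, at 0.143, while SHR spanned 1.21 to 8.43 and SHR+Nef 2.05 to 4.11. The highest value of MERGE.3495.1 and of MERGE.7016.1 belonged to SHR replicate 4. MERGE.33911.1, MERGE.352.1 and MERGE.18633.1 were steadier. Their means over the 10 libraries were 3.30, 2.57 and 2.33, with coefficients of variation of 24.4%, 23.5% and 15.8%.

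At 4 of the 6 isoform swap loci, MERGE.3999, MERGE.13674, MERGE.18312 and MERGE.18608, at least 1 other isoform was lower in SHR than in WKY (limma). At MERGE.3999 and MERGE.13674 the only such isoform was not listed for SHR+Nef, so the listing set its direction. It passed the filter only through WKY, where it is high. The call at MERGE.18312 was lost in 10 of 23 alternatives. The other isoforms were not used by the rule. They are not independent of it either, since the abundances of isoforms of 1 locus are estimated from the same reads. Over all loci of the 27, 28 other isoforms listed for every library were tested, and 3 were higher and 3 lower in SHR, 21.4% in all. These counts are a description, since MERGE.33377.2 and MERGE.18608.1 were below 1 in every WKY library and passed the filter only through the SHR strain, where they are high. Among the lower ones, MERGE.18608.37 would not have passed without its WKY libraries, where it is high (2.88 to 7.91, against 0.126 or less in SHR). Of all 29204 transcripts tested, 1.53% were called, 0.705% higher and 0.822% lower in SHR.

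A further 10 tested isoforms were listed for WKY and SHR only, and 9 of them were lower in SHR. All 10 had SHR means below 0.5. A transcript enters the tables of WKY and SHR only where 1 of those groups reaches a mean of 0.5, so the listing itself set their direction.

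MERGE.3999 was the plainest swap. MERGE.3999.1 was at 0.01, 0.0522, 0.0648, 0.00898 and 0.0532 in WKY and at 7.21, 6.53, 6.94, 3.58 and 8.41 in SHR. MERGE.3999.2 was at 7.15, 7.58, 8.67, 8.87 and 9.18 in WKY and at 0 in all 5 SHR libraries. In every WKY library isoform 2 led the locus, and in every SHR library isoform 1 did, while the summed value of the locus averaged 9.31 ± 0.544 for WKY and 7.81 ± 2.44 for SHR (SD, n = 5 per group).

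The fall of MERGE.3999.2 was 3.21 on the log2(value + 1) scale (standard error 0.15, limma, adjusted p = 8.0e-07, lower in 5 of 5 libraries). MERGE.3999.2 is not listed for SHR+Nef, so its direction is set by the listing. It also passed the filter only through WKY, where it is high, so this difference is a description. In SHR+Nef MERGE.3999.1 was at 7.48, 1.05, 7.30, 8.10 and 7.85. The low library was SHR+Nef replicate 2, in which another isoform, MERGE.3999.3, stood at 10.5. That isoform is listed for SHR+Nef only and was at 0.008 or less in the other 4. MERGE.3999.5 varied within each group, from 0.0315 to 2.03 in WKY and from 0 to 3.11 in SHR, and did not pass (limma, adjusted p = 0.95).

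MERGE.13674 showed the same exchange between 2 isoforms. MERGE.13674.2 was at 0.376, 0.487, 0.232, 0.481 and 0.171 in WKY, at 5.58, 3.75, 3.26, 2.64 and 3.13 in SHR, and at 4.02, 5.95, 4.69, 3.70 and 3.15 in SHR+Nef. MERGE.13674.1 was at 5.43, 4.12, 6.86, 4.86 and 5.91 in WKY and at 0.352 or less in SHR. The share of the locus held by isoform 2 was 2.81% to 10.6% in WKY and 89.9% to 99.1% in SHR. MERGE.13674.1 fell by 2.48 on the log2(value + 1) scale (standard error 0.17, limma, adjusted p = 2.9e-05, lower in 5 of 5 libraries), again a direction set by the listing. It too passed the filter only through WKY, where it is high, so this difference is a description. The summed locus averaged 5.79 ± 0.918 for WKY and 3.82 ± 1.10 for SHR (SD, n = 5 per group).

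At MERGE.18312 a pair of isoforms took over from another. MERGE.18312.2 was at 0, 0.459, 0, 0.285 and 0.400 in WKY, at 16.4, 10.1, 10.7, 1.56 and 12.9 in SHR and at 8.57 to 11.7 in SHR+Nef. MERGE.18312.4 was at 0, 0.424, 0, 0.243 and 0.387 in WKY, at 1.22, 3.26, 1.37, 8.77 and 1.71 in SHR and at 1.03 to 5.42 in SHR+Nef. In SHR replicate 4 isoform 2 was at its lowest and isoform 4 at its highest. Together the pair held 61.7% to 78.7% of the locus in each of the 10 SHR and SHR+Nef libraries, SHR replicate 4 included (71.1%), and 0% to 10.1% in WKY.

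MERGE.18312.3 was at 3.16, 14.0, 12.96, 11.8 and 3.64 in WKY and at 1.69 to 2.23 in SHR, without overlap. It fell by 1.61 on the log2(value + 1) scale (standard error 0.35, limma, adjusted p = 0.033, lower in 5 of 5 libraries). This call was lost in 10 of 23 alternatives, with adjusted p from 0.0084 to 0.12 over all 23 (limma), among them the omission of any 1 SHR library or of WKY replicate 2, 3 or 4. The remaining isoform, MERGE.18312.5, was at 3.33 to 5.05 in WKY and 2.11 to 4.59 in SHR and did not pass (limma, adjusted p = 0.69). The summed locus ran from 7.76 to 19.2 in WKY and 14.5 to 22.4 in SHR, so the ranges overlapped.

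MERGE.18608 was the most divided locus, with 53 other isoforms listed, of which 19 were expressed in WKY. Its member, MERGE.18608.80, was at 0.109, 0.220, 0.225, 0.160 and 0.176 in WKY, at 2.73, 1.39, 2.19, 3.97 and 2.70 in SHR and at 2.003 to 2.50 in SHR+Nef. It held no more than 2.46% of the locus in any library. Of its 20 other isoforms listed for every library and tested, 2 were higher and 2 lower in SHR. MERGE.18608.90 rose from 2.77 ± 1.26 for WKY to 17.98 ± 7.90 for SHR (SD, n = 5 per group; log2 difference 2.32, standard error 0.31, limma, adjusted p = 0.00076).

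MERGE.18608.55 fell from 13.1 ± 1.59 for WKY to 1.69 ± 0.817 for SHR (SD, n = 5 per group; log2 difference -2.43, standard error 0.24, limma, adjusted p = 4.7e-05). MERGE.18608.90 and MERGE.18608.55 kept their call in all 24 alternatives, while MERGE.18608.1, the other one higher (log2 difference 0.96, limma, adjusted p = 0.028), lost it in 9 of 23, with adjusted p from 0.0064 to 0.11 (limma). MERGE.18608.49, not listed for SHR+Nef, was at 12.01, 26.2, 10.8, 9.25 and 15.4 in WKY and at 0.416, 0, 1.18, 0 and 0 in SHR. The sum of all listed isoforms was 126 to 179.6 in WKY and 99.2 to 182 in SHR, so the exchange of isoforms went without a separation of the sums.

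**Figure D2:**
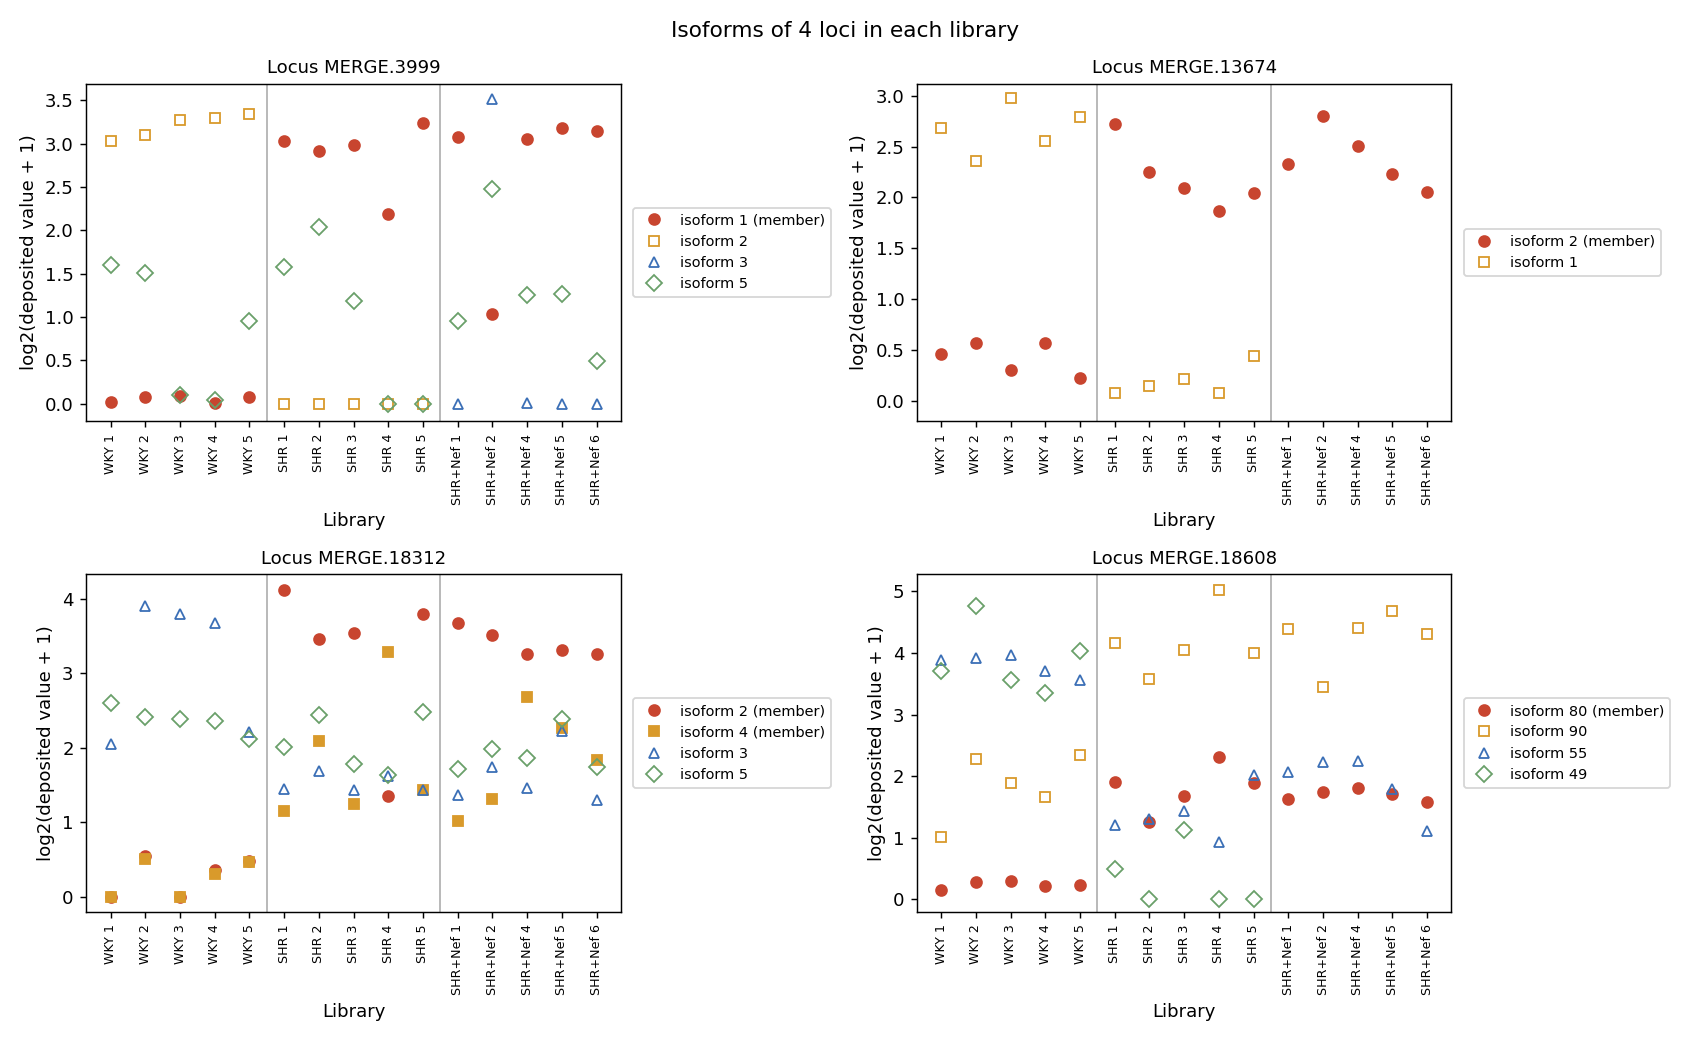
Each panel is 1 locus, the vertical axis gives log2(deposited value + 1) and the horizontal axis the library, with filled symbols for the chosen transcripts and open symbols for other isoforms (none is drawn where a library does not list it). At MERGE.3999 and MERGE.13674 the filled circles and open squares exchange places between the WKY and SHR libraries, and at MERGE.3999 SHR+Nef replicate 2 has isoform 3 at 10.5.

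At the other 2 swap loci, MERGE.18522 and MERGE.18660, no tested isoform expressed in WKY was called lower in SHR. MERGE.18660.6, with a mean of 7.98 in WKY and 0.854 in SHR, was in too few libraries to be tested. The summed value of each locus was higher in every SHR library than in any WKY library. The name isoform swap means there only that another isoform was expressed in WKY. MERGE.18522.1 was at 0.101, 0.149, 0.109, 0.113 and 0.115 in WKY, at 7.80, 21.1, 9.12, 71.6 and 3.63 in SHR and at 23.0, 58.9, 4.55, 86.6 and 3.55 in SHR+Nef. Its partner MERGE.18522.4 was at 21.9 to 46.1 in WKY, at 149.8, 60.6, 141, 4.10 and 118 in SHR and at 9.16, 7.79, 153, 10.6 and 126 in SHR+Nef. The 3 libraries with the highest isoform 1, SHR replicate 4 and SHR+Nef replicates 2 and 5, were 3 of the 4 with isoform 4 below 11. MERGE.18522.1 held 94.6%, 70.8% and 89.1% of the locus in those 3, and 2.01% to 25.9% in the other 7. The summed locus ran from 22.0 to 46.2 in WKY and from 75.7 to 157.6 in SHR. The test of MERGE.18522.4 did not pass (SHR minus WKY 0.72, standard error 0.99, limma, adjusted p = 0.84).

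MERGE.18660.17 had the highest ratio of highest to lowest library within the strain, 225, and MERGE.18522.1 the highest coefficient of variation, 108%, against 106% for MERGE.18660.17. MERGE.18660.17 was at 0 in all WKY libraries, at 3.82, 196, 5.46, 287 and 177 in SHR and at 8.30, 1.28, 8.42, 132 and 198 in SHR+Nef. The values fell into a low set of 5 libraries, at 8.42 or less, and a high set of 5, at 132 or more, with both sets present in SHR and in SHR+Nef. The second member there, MERGE.18660.14, was at 0, 0.106, 0.0884, 0 and 0 in WKY, at 23.3, 9.20, 41.4, 11.2 and 8.76 in SHR and at 28.5, 35.9, 15.5, 2.28 and 9.96 in SHR+Nef. It was at 15.5 or more in the 5 libraries with low MERGE.18660.17 and at 11.2 or less in the 5 with high.

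Which isoform led MERGE.18660 changed from library to library. Isoform 17 led in 4 SHR or SHR+Nef libraries, isoforms 7 and 8 in 2 each and isoforms 14 and 15 in 1 each. In WKY isoform 7 led in 2 libraries and isoforms 6, 8 and 18 in 1 each. MERGE.18660.8 was at 206 in SHR replicate 1 and 263 in SHR+Nef replicate 2 and at 0.0153 or less in the other 8. The sum of listed isoforms was 19.9 to 72.8 in WKY and 254 to 595 in SHR, highest in SHR replicate 4. In SHR+Nef it was 36.4 to 357, the low one being replicate 4.

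The isoforms by which MERGE.18660 counted as a swap locus were MERGE.18660.18 and MERGE.18660.6. MERGE.18660.18 was at 5.03 to 19.2 in WKY and 62.2 to 183 in SHR without overlap, yet did not pass (log2 difference 2.58, standard error 1.05, limma, adjusted p = 0.42). In SHR+Nef it was at 0.232 and 0.323 in replicates 1 and 4 and at 47.1 to 60.0 in the other 3. The outcome depended on whether the SHR+Nef libraries were in the model. Fitted on WKY and SHR alone, MERGE.18660.18 was called higher in SHR (limma, adjusted p = 0.0080). None of the remaining 23 of 24 alternatives called this isoform, with adjusted p reaching 0.58 (limma). MERGE.18660.6 was at 13.1 to 13.4 in WKY replicates 1 to 3, at 0 in replicates 4 and 5, and at 4.26 or less in SHR, in too few libraries to be tested.

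**Figure D3:**
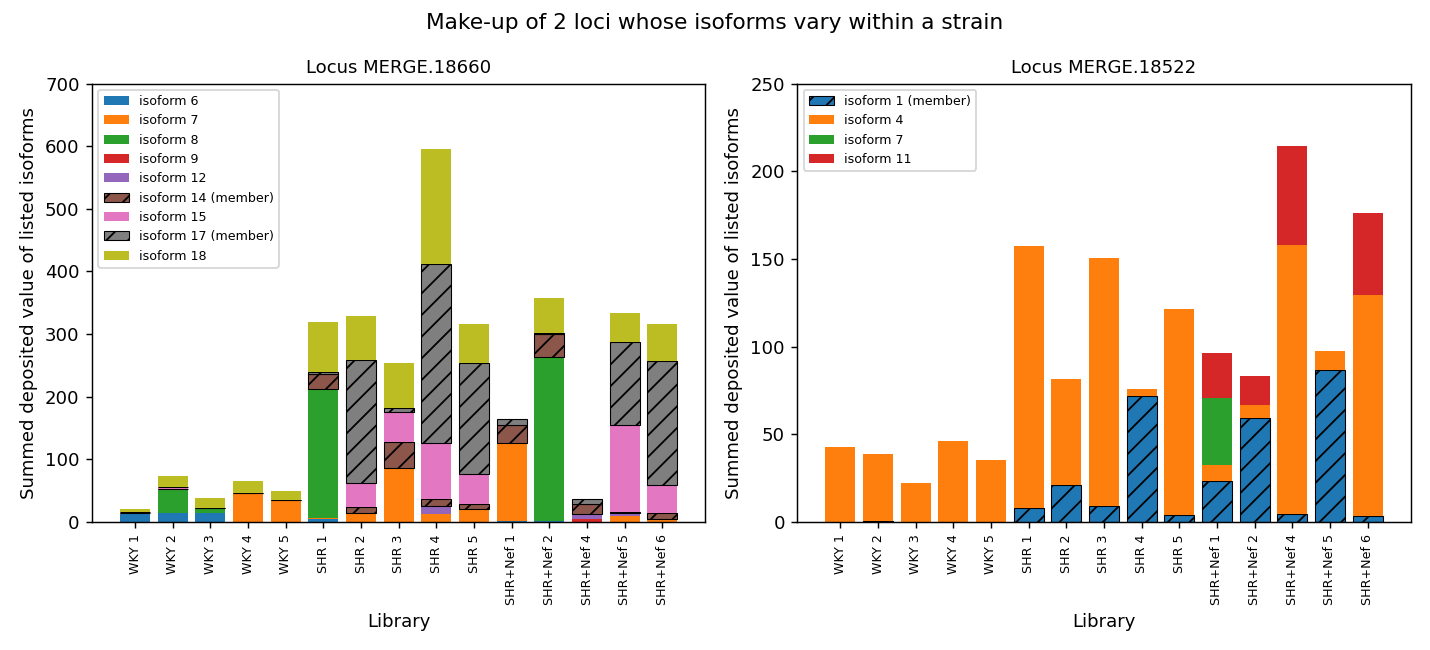
Bars give the summed deposited value of the listed isoforms of MERGE.18660 and MERGE.18522 in each library, stacked by isoform, with hatching for the chosen transcripts. Isoforms 9 of the first locus and 7 and 11 of the second are listed for SHR+Nef only. MERGE.18660.17 makes up the largest block in 4 libraries, and MERGE.18522.1 exceeds 58 in SHR replicate 4 and SHR+Nef replicates 2 and 5.

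The 5 Ensembl transcripts had means of 1.85 to 14.0 over the 10 libraries and coefficients of variation of 21.6% to 97.7%. ENSRNOT00000002310 was at 0 in 4 WKY libraries and 0.0585 in replicate 4, at 16.7, 12.1, 15.7, 20.8 and 10.7 in SHR and at 10.7, 9.99, 13.4, 16.3 and 13.7 in SHR+Nef. Its lowest SHR strain library was 171 times its only WKY value above 0. ENSRNOT00000072384 reached at most 0.107 in WKY, while SHR spanned 5.86 to 8.93 and SHR+Nef 4.53 to 9.19. Both were steady within the strain, with coefficients of variation of 24.2% and 23.1%.

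ENSRNOT00000019880 was at 0 in all WKY libraries and uneven elsewhere, at 1.28, 2.74, 13.5, 11.8 and 3.57 in SHR and 4.64, 17.1, 1.53, 2.15 and 1.59 in SHR+Nef. ENSRNOT00000008655 spanned 0.247 to 0.453 in WKY, while SHR spanned 1.53 to 4.84 and SHR+Nef 1.56 to 3.66. ENSRNOT00000090891 had the lowest level of the 27, between 0.0778 and 0.152 for WKY, 1.44 and 2.53 for SHR, and 1.23 and 2.15 for SHR+Nef.

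The contrast of the strains was used to choose the transcripts, so its calls add nothing to the choice. Of the 27, 25 were called higher in SHR than in WKY (limma, adjusted p under 0.05), where 0.705% of all 29204 tested transcripts were. Between SHR+Nef and WKY 24 were called, where 0.818% of 29095 were higher. MERGE.18660.17 and MERGE.18312.4 were called in neither comparison, and ENSRNOT00000019880 was called in the first alone. The 2 comparisons share the WKY libraries.

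A choice made on the untreated rats alone left the treated rats as libraries it did not use. Below 0.5 in all WKY and at 1 or more in all SHR libraries were 38 transcripts, the 27 and 11 more. All 38 had an SHR+Nef mean of 1 or more, and in 37 every SHR+Nef library lay above every WKY library. The 11 missed the rule through 1 or more SHR+Nef libraries, the most abundant being MERGE.18478.37 (SHR mean 10.4, SHR+Nef range 0.839 to 15.1). Chosen instead on WKY and SHR+Nef there were 55, of which 54 had an SHR mean of 1 or more. In each case the choice itself held the WKY values below 0.5. The shares over all transcripts were not computed, so these counts are a description. With SHR or SHR+Nef as the group below 0.5, and the other 10 libraries at 1 or more, 0 transcripts met the rule either way.

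No difference between SHR+Nef and SHR passed the test in any of the 27 transcripts. The rule did not compare these groups, but it required 1 or more in every library of both. A transcript below 1 in any of these libraries was therefore left out beforehand. The result covers only transcripts that stayed at 1 or more in SHR and in SHR+Nef. The number called was 0 of 27 (limma). The count with an unadjusted p under 0.05 was also 0, and the lowest adjusted p (limma) was 0.78. Over all 29095 transcripts tested, 0.00687% were called and 6.16% had an unadjusted p under 0.05. In 0 of the 27 were the SHR and SHR+Nef values free of overlap, against 1.08% of all tested.

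The fitted differences, SHR+Nef minus SHR on the log2(value + 1) scale, ran from -1.18 for MERGE.18660.17 to 0.45 for MERGE.18522.1, both highly variable. They were negative in 21 and positive in 6, with a median of -0.15, against 0.06 over all transcripts tested. Without SHR replicate 4, the highest of the 10 libraries for 14 of the 27, they were negative in 17 and positive in 10, with a median of -0.08 against 0.00 over all. The median was also nearer 0 without SHR+Nef replicate 1 (-0.09), without SHR replicate 1 (-0.10), with the replicate block (-0.10) and with array quality weights (-0.10, with 18 lower and 9 higher). It was -0.13 to -0.11 without SHR replicate 3 or without SHR+Nef replicate 2, 5 or 6. In other alternatives it lay farther from 0, down to -0.18 with a pseudocount of 0.1. Over all alternatives 17 to 22 of the 27 were lower, apart from the stricter filter, under which 13 were tested. The 95% intervals lay within 1 log2 unit of 0 for 21 of the 27, so for the other 6 a change of 2 times in value + 1 was not bounded.

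The smallest p among lower transcripts belonged to MERGE.3495.1, at 4.60, 5.53, 3.11, 9.68 and 1.52 in SHR and 2.10, 1.65, 1.15, 4.01 and 3.43 in SHR+Nef. The fitted difference came to -0.67 (standard error 0.33, limma, adjusted p = 0.78). With 1 library left out it ran from -0.94 to -0.42. The groups overlapped, SHR replicate 5 being lower than 4 of the 5 SHR+Nef libraries. For MERGE.33377.1 the fitted difference came to -0.56 (standard error 0.32, limma, adjusted p = 0.78). With 1 library left out that difference ran from -0.79 to -0.29. SHR replicate 4 was the highest library for MERGE.3495.1 and MERGE.33377.1. The 2 with the smallest p among higher ones were MERGE.13674.2 (0.19, standard error 0.19, limma, adjusted p = 0.81) and MERGE.9062.3 (0.16, standard error 0.27, limma, adjusted p = 0.89).

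The tightest bound was that of MERGE.23059.1, with a difference of -0.02 and a 95% interval from -0.27 to 0.23. The other isoforms of the same loci gave 0 calls among 28 tested between SHR+Nef and SHR (limma), with 1 at an unadjusted p under 0.05, MERGE.18660.18 (SHR+Nef minus SHR -2.82, standard error 1.05, limma, unadjusted p = 0.0175, adjusted p = 0.78).

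**Figure D4:**
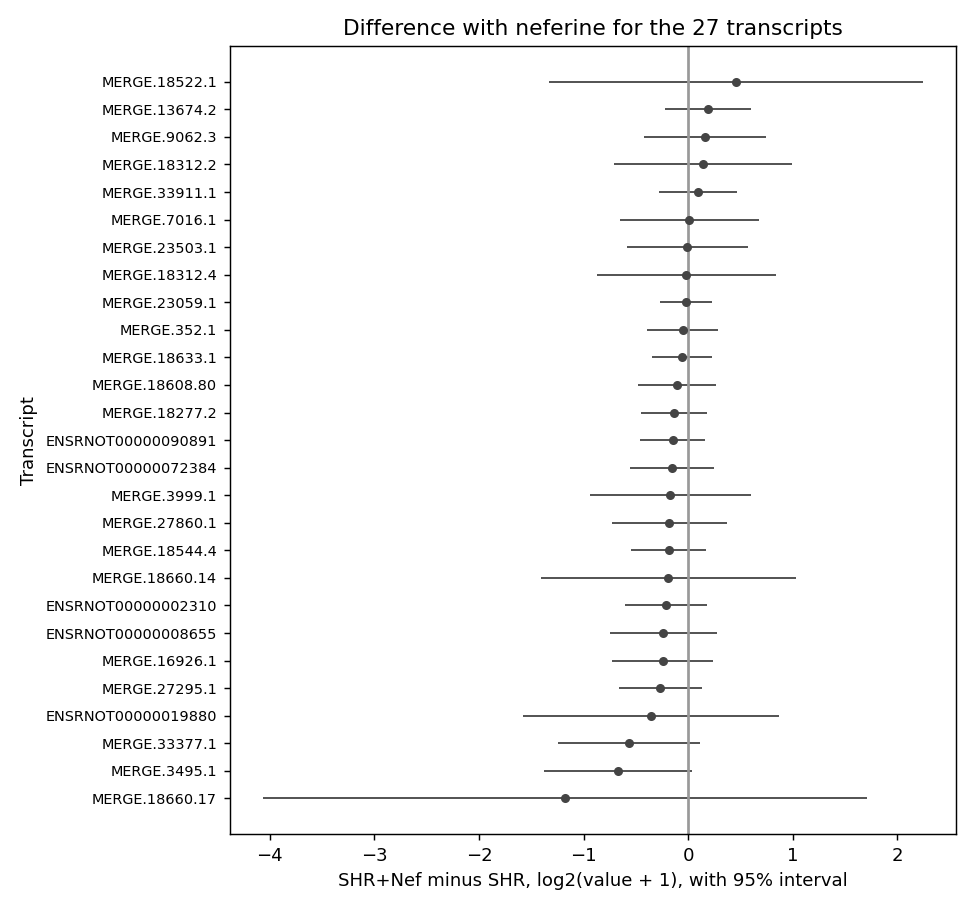
Points give the fitted difference SHR+Nef minus SHR on the log2(value + 1) scale for each of the 27 transcripts, and bars its 95% interval from limma. All 27 intervals include 0, from -1.18 for MERGE.18660.17, with the widest bar, to 0.45 for MERGE.18522.1.

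Near the limits the choice was a matter of small steps. Just inside the WKY limit were MERGE.13674.2, with a highest WKY value of 0.487, and MERGE.16926.1, with 0.480. Just outside were MERGE.32459.1 (0.548) and ENSRNOT00000025770 (0.554). On the other side MERGE.18312.4 and MERGE.33377.1 entered with lowest values of 1.03 and 1.04, while MERGE.11318.1 (0.995) and MERGE.21743.6 (0.994) did not. A single library kept out 22 transcripts on the WKY side and 25 on the SHR side. Of the latter, SHR replicate 3 kept out 6, SHR replicate 4 kept out 5, and each other library 1 to 3.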

How the data were processed

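The authors deposited 1 table per library, with transcript abundances that they estimated and that are used here as a signal. The scale was not named in these sources, so the depth behind each value is unknown and no counting interval is given. Libraries were made from total RNA with ribosomal RNA depletion, per the labels' protocols. The submitters' processing notes name limma and the build mm10, a mouse build, although the labels and IDs are of the rat; no coordinates were used. No source used here names the aligner or the assembler. Every WKY or SHR table holds 41871 transcripts and each of SHR+Nef holds 41162, with 39097 shared.

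Groups were compared with limma 3.58.1 in R 4.3.3 on log2(value + 1), with the trend and robust options, all 3 groups in 1 model with 12 residual degrees of freedom, two-sided tests and Benjamini-Hochberg adjustment over all transcripts tested. Transcripts at 1 or more in at least 5 libraries were tested, and those absent from the SHR+Nef tables used only the 10 other libraries. A call is an adjusted p under 0.05. P-values measure the spread between samples, since nothing says that the rats were independent.

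The members and lists were chosen with earlier results of these data known. The named transcripts are the most abundant members, the 2 with the smallest p in each direction under neferine, the main swap and whole loci, loci with more than 1 member and those nearest the limits; the others are named by ID because they complete the 27. Other isoforms beyond the leading ones were named after their values were seen. Because 0 IDs matched the gene table, no marker or pathway list was tested. The scripts were tested on simulated data. Alternatives changed the normalization, pseudocount, filter, weights, model, replicate block and limits of the rule, and left out each library in turn.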

Additional observations from a re-analysis of the deposited data

Results flagged for a closer look

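In 124 sets of 5 values, 1 per group and transcript or isoform, a single library lay apart from the other 4 (gap over range above 0.71) in 26. Chance gives about 5% in sets of independent normal values, but these sets are not such: many hold values that the rule chose, and in some, such as MERGE.352.1 in WKY, 4 values at 0 fix the gap at the whole range. SHR held 13 of them, WKY 8 and SHR+Nef 5. SHR replicate 4 was the library apart in 8, and 6 of these were among the 27 transcripts, always high.

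In SHR replicate 4 MERGE.27295.1 stood at 120.6, MERGE.18522.1 at 71.6, MERGE.27860.1 at 17.6, MERGE.23503.1 at 11.96, MERGE.18312.4 at 8.77 and MERGE.7016.1 at 8.43. Of the other isoforms, MERGE.18660.18 stood at 182.8 and MERGE.18608.90 at 31.5 there. MERGE.18277.2 was apart in SHR replicate 3, low at 20.4. MERGE.33377.2 was at 5.43 in SHR replicate 1, and MERGE.18608.37 at 0.126 in SHR replicate 5.

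SHR+Nef replicate 2 was apart for MERGE.3999.1, low at 1.05, and high for MERGE.3999.5 at 4.57 and ENSRNOT00000019880 at 17.1. At MERGE.18660 isoform 8 was apart at 38.9 in WKY replicate 2, 205.8 in SHR replicate 1 and 262.5 in SHR+Nef replicate 2. Isoform 7 of that locus was apart at 85.6 in SHR replicate 3 and 126.1 in SHR+Nef replicate 1, and isoform 18 was low at 5.03 in WKY replicate 1.

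Besides those of MERGE.18660.8 and MERGE.18660.18, the values apart in WKY were small. They were 0.0585 for ENSRNOT00000002310 and 0.0682 for MERGE.23503.1 in replicate 4, 0.453 for ENSRNOT00000008655 and 0.143 for MERGE.7016.1 in replicate 2, 0.137 for MERGE.352.1 in replicate 3 and 0.717 for MERGE.33377.2 in replicate 1.

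Isoforms of the same loci listed for SHR+Nef only entered no comparison. Their SHR+Nef means were 29.1 for MERGE.18522.11, 7.64 for MERGE.18522.7, 2.09 for MERGE.3999.3, 1.007 for MERGE.18660.9 and 0.644 for MERGE.18608.11.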

How the results depend on the processing

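The number of transcripts meeting the rule, 27, was 9 when all WKY libraries had to be at 0 and 50 with WKY below 1. It was 13 with at least 2 in all 10 libraries and 6 with at least 5. Median scaling gave 28, with 25 of the 27 kept. Leaving out 1 library gave 28 to 33, but the rule sets a limit in every library, so this omission can only keep or raise the number. The 6 swap loci became 4 when isoforms not listed for SHR+Nef were set aside. Calls between SHR and WKY, 446, were 175 under the stricter filter and 326 to 501 with 1 library left out. Between SHR+Nef and WKY, 377 became 180 under the stricter filter. Array quality weights gave 680, and leaving out 1 library gave 256 to 540. Between SHR+Nef and SHR, 2 became 0 with a pseudocount of 0.1 (1698 at an unadjusted p under 0.05) and under the stricter filter (681), 4 with only those groups, and 2 to 5 with 1 library left out. The 15 other isoforms called were 5 of 19 tested under the stricter filter and 12 to 16 with 1 library left out. None of the 27 was called under neferine in any alternative (limma, smallest adjusted p 0.46 to 0.98). The difference for MERGE.9062.3 turned to -0.11 without SHR replicate 2 (-0.11 to 0.34 over the libraries left out). The causes were not tested, except that the stricter filter tests fewer transcripts.

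Replicate numbers are not paired by the labels. The deviations of the 13 pairs of libraries with the same number correlated at -0.0672 to 0.0909. With the replicate number as a block, 233 transcripts were called between SHR and WKY, 164 between SHR+Nef and WKY, 0 between SHR+Nef and SHR (limma, 1906 at an unadjusted p under 0.05) and 12 other isoforms. SHR+Nef replicate 6 shares its number with no library and adds nothing to that fit.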

Other observations

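A pair of transcripts missed the rule through 1 strongly positive WKY library, the other 4 being at 0. MERGE.9009.3 was at 37.9 in WKY replicate 4 with a mean of 21.2 over the 10 SHR and SHR+Nef libraries, and MERGE.22779.1 was at 16.7 in WKY replicate 2 with a mean of 38.2. Both were picked out with their values in view.

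Of the 20 loci of the assembled transcripts, 7 (35%) fell in 1 block of 1000 consecutive locus numbers (18277 the lowest, 18660 the highest), among them MERGE.18660, MERGE.18312 and MERGE.18522, while the block held 3.04% of all 14657 listed loci. That block was chosen with the numbers in view, and no source used here says how they relate to genome position.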
